A study of Mus musculus with 20 samples.

Results

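A set of 10 genes was followed through the heart libraries of wild-type and Tecrl knockout mice: Adipoq, Plin1, Cfd, Cidec and Retn, which mark white adipocytes, and Prkar2b, Acaca, Fasn, Acly and Pck1, which encode lipogenic enzymes and metabolic regulators. They were taken by gene name from the 29339 genes of the count table, and all 10 were found. Their levels over the 20 libraries, highest in the library named S7, chose them: the genes were chosen by this readout, so that pattern is given as a description without a test. The hearts came from C57BL/6 mice at 8 weeks of age. The wild-type (WT) animals carry an intact Tecrl gene and the knockout (KO) animals are labelled TECRL-/-. By their labels, 5 libraries are of WT males, 3 of WT females, 5 of KO males and 7 of KO females. Library names form 2 series, S1 to S12 and the group WT1, WT2 and TKO1 to TKO6. The study's methods describe 1 library for each mouse and 3 mice in each group, so 20 libraries are more than that design holds, and p-values measure only the spread between these libraries.

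White adipocytes store triglyceride in a single large droplet coated with perilipin and secrete adipokines such as adiponectin, adipsin and resistin. Lipogenic tissues make fatty acids from citrate: ATP citrate lyase frees acetyl-CoA in the cytosol, acetyl-CoA carboxylase turns it into malonyl-CoA, and fatty acid synthase assembles palmitate. The heart mainly burns fatty acids, and its carboxylases are best known for making malonyl-CoA, which restrains fatty acid entry into mitochondria. Fat tissue also lies around the heart, on the pericardium and in the groove between atria and ventricles.

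The sequence just before the first transcribed base is given for 4 of the genes. The 250 bases upstream are shown for 2 markers with few or no CpG dinucleotides and for 2 enzymes with many, to show how far these windows differ. The 4 were picked with all windows in view, and the CpG content does not split the markers from the other genes (Cidec, Pck1 and Acaca are exceptions). Sequences and starts are those of RefSeq on GRCm38.p6, are written 5′ to 3′ on the gene's own strand, and have every CpG in capitals. The windows are chr16:23146286-23146535, plus strand, for Adipoq, chr10:79890603-79890852, plus strand, for Cfd, chr11:120824548-120824797, minus strand, for Fasn, and chr11:100528001-100528250, minus strand, for Acly.
Adipoq: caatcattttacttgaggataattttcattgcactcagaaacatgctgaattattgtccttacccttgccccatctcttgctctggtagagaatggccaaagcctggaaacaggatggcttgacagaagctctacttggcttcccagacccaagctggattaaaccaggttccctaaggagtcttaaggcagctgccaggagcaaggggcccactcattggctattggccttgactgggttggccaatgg
Cfd: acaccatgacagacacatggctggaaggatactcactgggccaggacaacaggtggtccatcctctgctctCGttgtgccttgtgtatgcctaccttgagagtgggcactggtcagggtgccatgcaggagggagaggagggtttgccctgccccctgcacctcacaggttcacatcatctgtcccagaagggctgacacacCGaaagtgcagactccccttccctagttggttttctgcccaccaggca
Fasn: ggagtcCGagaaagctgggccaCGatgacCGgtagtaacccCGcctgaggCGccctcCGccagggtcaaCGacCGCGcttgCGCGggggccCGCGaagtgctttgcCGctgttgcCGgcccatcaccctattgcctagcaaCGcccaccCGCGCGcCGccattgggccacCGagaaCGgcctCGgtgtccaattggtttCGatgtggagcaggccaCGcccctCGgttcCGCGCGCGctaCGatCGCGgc
Acly: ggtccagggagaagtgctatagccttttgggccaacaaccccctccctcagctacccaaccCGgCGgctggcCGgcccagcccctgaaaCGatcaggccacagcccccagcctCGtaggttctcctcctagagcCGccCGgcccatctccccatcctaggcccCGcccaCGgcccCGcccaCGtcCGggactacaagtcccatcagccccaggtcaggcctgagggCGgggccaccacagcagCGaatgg

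Adipoq had 0 CpG in this window and Cfd had 2, against a median of 6 over 32851 windows of the same length. Fasn had 33, more than 96.0% of all windows, and Acly had 14, more than 70.6% of them. Of the other markers, Plin1 had 1, Retn 2 and Cidec 4 or 6 in its 2 annotated windows. Prkar2b had 26 or 28 in 2 windows and Pck1 had 5. The Acaca window had 0, but it precedes an internal start within the gene and not the first exon of GENCODE. All motifs were searched on both strands. CCAAT occurred 3 times each in the Adipoq and Fasn windows and in 33.8% of all windows. The GC box GGGCGG occurred 4 times in the Acly window, 4 times in 1 of the Prkar2b windows, 1 time in that of Pck1 and in 32.7% of all windows. TTGCNNAA, a C/EBP-like pattern, occurred in the Plin1 window and in 1 Cidec window, and in 9.56% of all windows. None of these matches is a measured binding site.

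Total counts ran from 12540002 to 20038593 per library. The targeted gene, Tecrl, did not separate the labels: its median was 81.7 CPM (counts scaled to library size by TMM) in the libraries labelled male WT, and the fitted KO minus WT difference was 0.02 on the log2 scale (standard error 0.195) in the libraries labelled male and 0.22 (standard error 0.135) in those labelled female. Xist and Y-linked transcripts went against the labelled sex in 6 of 20 libraries. S7, S8 and S9, labelled male WT, held Xist at 252 to 325 CPM and no Y-linked count, whereas S4, S5 and S6, labelled female KO, held summed Y-linked transcripts at 180.8 to 203 CPM. Cardiomyocyte genes were abundant throughout, and their summed level in S7 lay within the range of the other libraries. S7 differed in other respects too. The 3 ventricular genes summed to 5333 CPM, below the 9139 to 18430.0 CPM of the other 19 libraries, the 5 mesothelial genes to 344.5 CPM against at most 119.8 elsewhere, and the 5 atrial genes to 7014 CPM, which S11 also reached with 7207 CPM. Red blood cell genes summed to 25.95 CPM in S7 against at least 145.6 elsewhere and Schwann cell genes to 40.3 against at most 22.1, and mitochondrial genes took 15.3% of its counts against at least 19.3%. The share of these tissues in the adipocyte signal was not tested. In bulk RNA, more cells of a type and more RNA per cell cannot be told apart.

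The 5 adipocyte markers were low or near the floor of 3 counts in most hearts and high in S7. Their summed level was 935.7 CPM in S7, from 13844 counts. The next libraries were S9 at 41.3, S12 at 24.3 and S10 at 20.6 CPM, and the lowest was TKO6 at 0.0805 CPM, from 1 count. S1 and S2, at 1.56 and 0.969 CPM, lay within the range of the WT and TKO libraries, which reached 1.91 CPM in TKO2, and the other S-numbered libraries lay above it.

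Adipoq encodes adiponectin, a hormone secreted by fat cells. In the libraries labelled male WT it stood at 112 CPM in S7, 0.861 in S8, 2.83 in S9, 0.185 in WT1 and 0.0702 in WT2. Those labelled male KO held 1.83 in S10, 1.16 in S11, 1.32 in S12, 0.0835 in TKO5 and 0 in TKO6. Libraries labelled female ran from 0 to 0.360 CPM in WT (n = 3) and from 0.0625 through a median of 0.344 to 1.08 in KO (n = 7). S7 was 39.7 times the next library, and the remaining ranges of the groups overlapped.

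Cfd encodes adipsin, complement factor D, and had the most counts of the markers in S7. It reached 479 CPM in S7, against 5.54 in S8, 25.1 in S9, 0.371 in WT1 and 0.281 in WT2. Male KO libraries held 11.8 in S10, 6.57 in S11, 14.4 in S12, 0.0835 in TKO5 and 0 in TKO6. Among libraries labelled female, the WT values were 0.875 in S1, 0.582 in S2 and 1.94 in S3, and the KO values ran from 0.439 through 1.34 to 9.60 CPM. The 3 highest female KO values were those of S4, S5 and S6, while TKO1 to TKO4 held at most 1.34 CPM, less than S3.

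Plin1, perilipin 1, coats the lipid droplet and gates its breakdown. It measured 89.4 CPM in S7, 3.01 in S9 and 2.77 in S12, and 10 of the other 19 libraries had 3 counts or fewer. Cidec, which fuses lipid droplets into larger ones, measured 181 CPM in S7 and 8.79 in S9, and was at 3 counts or fewer in 4 libraries. Retn, which encodes resistin, measured 74.7 CPM in S7 and 1.60 in S9, with 11 libraries at 3 counts or fewer. For all 3 genes S9 was the second highest library. S7 exceeded it 29.7 times for Plin1, 20.6 times for Cidec and 46.8 times for Retn, and WT1, WT2, TKO5 and TKO6 held at most 3 counts of each.

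**Figure D1:**
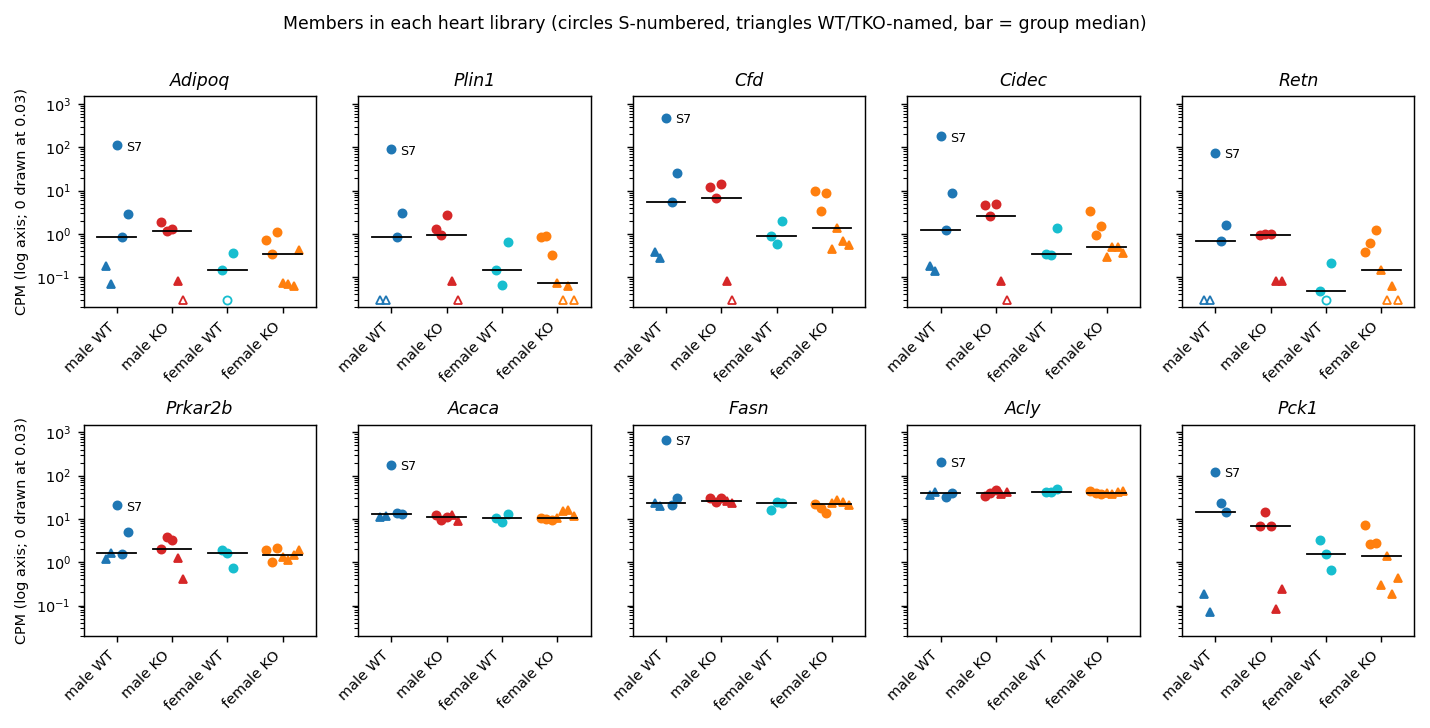
CPM of each gene in the 20 libraries on a log axis, by labelled sex and genotype, with a bar at the group median, circles for S-numbered libraries and triangles for WT and TKO names; open symbols mark 0. S7 is the highest library in all 10 panels, while Acaca, Fasn and Acly stay in narrow bands in the other 19 libraries.

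The 3 enzymes of the path from citrate to palmitate were well above the floor in every heart and varied little outside S7. Acly, ATP citrate lyase, measured 209.7 CPM in S7, and in the other libraries labelled male WT it was 31.6 in S8, 39.8 in S9, 36.5 in WT1 and 41.7 in WT2. Male KO libraries lay between 33.3 and 45.4 CPM, female WT between 41.7 and 49.6, and female KO between 37.3 and 43.5. KO and WT overlapped within each labelled sex once S7 was set aside. Over the 19 libraries the mean was 40.1 ± 4.07 CPM (SD, n = 19), a coefficient of variation of 10.1%.

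Fasn, fatty acid synthase, varied more between hearts. It stood at 679 CPM in S7, against 20.98 in S8, 30.7 in S9, 23.7 in WT1 and 20.4 in WT2. Male KO libraries ran from 23.7 to 30.9 CPM, female WT from 15.8 to 24.0 and female KO from 13.8 to 28.1. The mean over 19 libraries was 23.5 ± 4.64 CPM (SD, n = 19; coefficient of variation 19.8%). S7 was 22.0 times the next library, S10, and the other values overlapped between groups.

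Acaca, acetyl-CoA carboxylase alpha, measured 177 CPM in S7, 13.8 in S8, 13.0 in S9, 11.3 in WT1 and 11.9 in WT2. Its range was 9.18 to 12.4 CPM in male KO, 8.47 to 13.0 in female WT and 9.64 to 15.9 in female KO. The mean of the 19 libraries was 11.6 ± 2.01 CPM (SD, n = 19; coefficient of variation 17.4%). TKO3, which held 11 Cfd counts, was second to S7.

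Prkar2b, a regulatory subunit of protein kinase A that is prominent in fat cells, fell between these patterns. It measured 20.8 CPM in S7 and 4.92 in S9, followed by 3.90 in S11 and 3.30 in S12, and TKO6 was lowest at 0.403 CPM. The coefficient of variation over 19 libraries was 59.4%, larger than for the 3 enzymes and smaller than the 118% to 142% of the markers. S7 was 4.24 times S9.

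Pck1, cytosolic phosphoenolpyruvate carboxykinase, makes glycerol backbone for triglyceride in fat cells and glucose precursors in liver and kidney. It reached 124 CPM in S7, 23.4 in S8 and 14.8 in S9, but 0.185 in WT1 and 0.0702 in WT2. In male KO it was 7.04 in S10, 14.6 in S11 and 7.05 in S12, against 0.0835 in TKO5 and 0.242 in TKO6. Female WT values were 3.26 in S1, 1.55 in S2 and 0.648 in S3, and female KO values ran from 0.188 through 1.41 to 7.36 CPM. In the libraries labelled male every S-numbered value exceeded every WT or TKO value, whereas in those labelled female S3 lay below TKO2 at 1.41 CPM.

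The order of the genes per unit length changed in S7. By the deposited FPKM (fragments scaled by gene length and library total), the median levels of the other 19 libraries were 7.38 for Acly, 2.14 for Fasn, 1.37 for Cfd and 0.682 for Acaca, with Prkar2b at 0.415, Pck1 at 0.411, Cidec at 0.276, Adipoq at 0.247, Retn at 0.0905 and Plin1 at 0.0322. Only Acly lay above every library of the gene ranked next, 5.90 to 9.69 FPKM against 1.25 to 3.09 for Fasn. The other neighbours overlapped. In S7 Cfd led at 575 FPKM, followed by Cidec at 108, Adipoq at 90.0, Fasn at 68.7, Retn at 52.4, Acly at 44.0, Pck1 at 40.1, Plin1 at 21.3, Acaca at 11.5 and Prkar2b at 6.32.

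S7 was the highest of 20 libraries for each of the 10 genes. Relative to the median of the other 19 libraries its CPM was 357 times higher for Cfd, 361 times for Cidec and 327 times for Adipoq, 79.9 times for Pck1, 28.4 times for Fasn, 15.7 times for Acaca, 12.9 times for Prkar2b and 5.25 times for Acly. The medians of Plin1 and Retn were at or under the floor, and no such ratio is given. Among 15183 expressed genes (10 counts or more in 3 or more libraries), S7 was at least 2 times the median for 1518, at least 10 times for 1.26% and at least 100 times for 0.263%. These values chose the genes and are no test of them.

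Likeness to the adipocyte markers was described by correlating each gene's log2 CPM with the mean of the markers, or of the other 4 when the gene was itself a marker. Over 20 libraries Pearson's r was 0.955 to 0.980 for the 5 markers, 0.879 for Pck1, 0.856 for Prkar2b, 0.755 for Fasn, 0.728 for Acaca and 0.699 for Acly. Without S7 (n = 19) the markers kept 0.903 to 0.960 and Pck1 kept 0.857, Prkar2b was at 0.679, and Fasn, Acaca and Acly were at 0.197, 0.041 and -0.128. The Spearman rho over 20 libraries was 0.884 for Pck1, 0.732 for Prkar2b, 0.365 for Fasn, 0.248 for Acaca and 0.135 for Acly. The points share depth scaling and the split by library name, so both series were also taken alone. Among the 11 S-numbered libraries without S7, r was 0.879 to 0.971 for the markers, 0.635 for Pck1, 0.591 for Prkar2b, 0.507 for Fasn, 0.462 for Acaca and -0.236 for Acly. Among the 8 WT and TKO libraries, where the markers lie near the floor, r was 0.732 for Prkar2b, 0.637 for Acaca, 0.474 for Pck1, 0.194 for Fasn and -0.086 for Acly, and for the markers it ran from -0.334 (Retn) to 0.925 (Cidec). Over the 19 libraries without S7, Pck1 and Prkar2b were thus closer to the markers than Fasn, Acaca and Acly, but among the WT and TKO libraries Acaca and Prkar2b stood above Pck1. Acly was negative in each of these sets without S7.

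**Figure D2:**
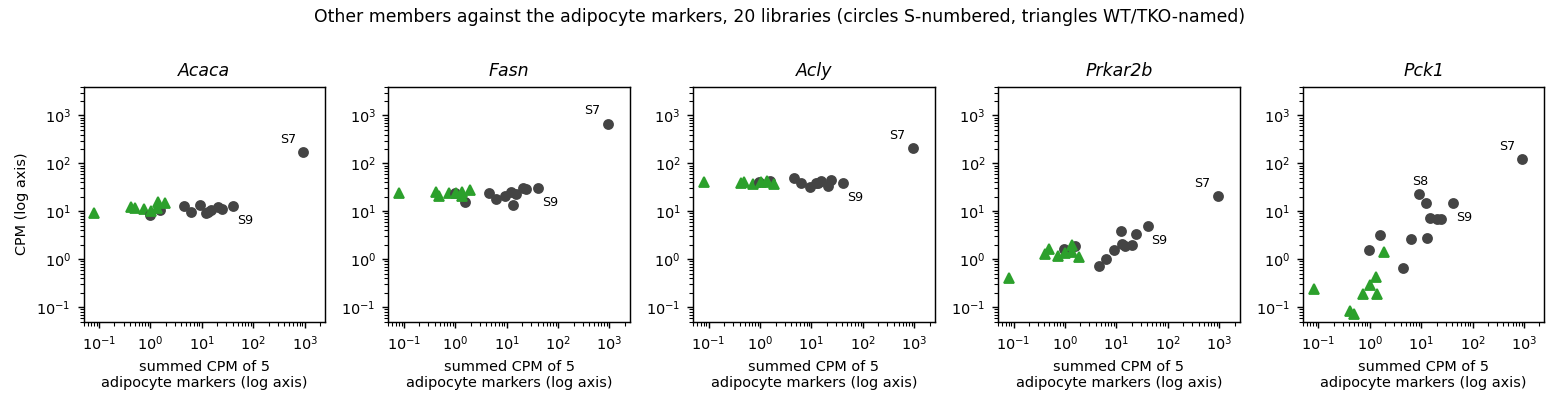
CPM of Acaca, Fasn, Acly, Prkar2b and Pck1 against the summed CPM of the 5 adipocyte markers, both on log axes, 1 point per library, with circles for S-numbered and triangles for WT and TKO names. From 0.0805 to 41.3 summed marker CPM, Acaca spans 8.47 to 15.9, Fasn 13.8 to 30.9 and Acly 31.6 to 49.6 CPM, all far below S7, while Pck1 spans 0.0702 to 23.4 CPM over the same libraries.

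S9 gave a second view of the same genes, since it held the most marker RNA after S7. It also shared atrial transcripts with S7: the 5 atrial genes summed to 5894 CPM in S9 and 7014 CPM in S7. Their part was not tested. The markers of S9 were at 2.14% (Retn) to 5.24% (Cfd) of the S7 level. Fasn was at 4.53% of S7 and Acaca at 7.37%. Acaca in S9 lay inside the 9.18 to 15.9 CPM of the WT and TKO libraries, which had almost no marker counts. Fasn did not: in S9, S10 and S12, the 3 libraries next to S7 in marker level, it measured 30.7, 30.9 and 29.8 CPM, above the 20.4 to 28.1 CPM of the WT and TKO libraries. Acly was at 18.96% of S7 and Prkar2b at 23.6%. For Pck1, the highest library after S7 was not S9 but S8, at 18.9% of S7, although the markers of S8 were at 0.681% to 1.16% of theirs.

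Transcripts of kidney and liver were present beside Pck1 in S-numbered libraries. The 5 kidney genes (Kap, Slc34a1, Umod, Miox and Aqp2, a list chosen after values were seen) summed to 43.9 CPM in S8, 56.4 in S11 and 26.4 in S9, 3 of the 4 libraries highest in Pck1, but to 1.62 CPM in S7, the highest. Kap, a kidney androgen-regulated protein, had 571 counts in S8, 672 in S11 and 713 in S6, 4 in S7 and at most 7 in any WT or TKO library. The levels did not run in parallel everywhere: S6, with 49.2 CPM of kidney genes, held Pck1 at 2.79 CPM, and S4, with 1.47, held 7.36. The 3 liver genes summed to 94.0 CPM in S4 and 0.879 CPM in S7, with albumin, Alb, at 1279 counts in S4 and at most 6 in WT and TKO libraries. The part of these transcripts in the Pck1 level was not tested. In S7, Kap and Alb had 4 and 11 counts, but Aqp2, of the kidney collecting duct, had 17, second to the 22 of S11, and the kidney sum of S7 was close to the 1.47 CPM median of the other 19 libraries.

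**Figure D3:**
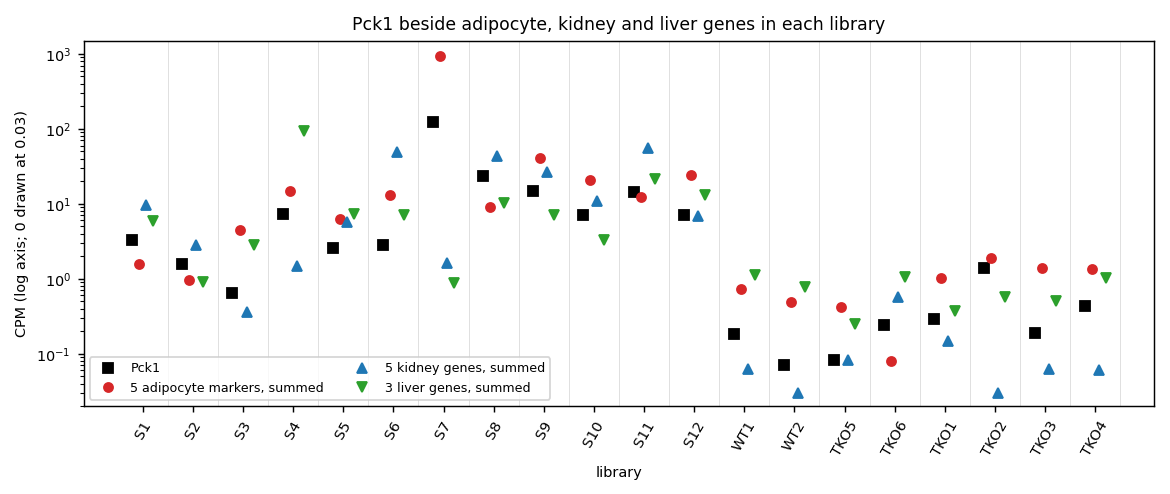
CPM of Pck1, of the 5 adipocyte markers summed, of 5 kidney genes summed and of 3 liver genes summed in each library, on a log axis with 0 drawn at 0.03. In S7 Pck1 stands with the adipocyte markers and kidney and liver genes are below 2 CPM, while in S8 and S11 the kidney genes exceed both.

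Other genes of the same pathways were taken from fixed lists. At least 2 times the 19-library median in S7 was reached by 1518 of all 15183 expressed genes. It was reached by 9 of 18 fatty acid synthesis genes, 3 of them chosen for their level in S7. Beside Acly, Acaca and Fasn these were Scd1, a desaturase, at 854 CPM against a median of 37.4; Elovl6, which elongates palmitate, at 19.1 against 0.983; Slc25a1, the mitochondrial citrate carrier, at 36.8 against 5.48; Scd2 at 78.7 against 13.4; and Srebf1 and G6pdx, each a little over 2 times. Acacb, the carboxylase form tied to mitochondria in muscle, did not share this and measured 228 CPM in S7 against a median of 323. Elovl5, Acss2, Mid1ip1 and Mlxipl lay within 0.96 to 1.02 times their medians. In the triglyceride list 3 of 10 passed the same mark, Pck1, itself chosen for its level in S7, Gpd1 (4.46 times) and Dgat1 (2.15 times), whereas Dgat2 was at 0.367 times and Aqp7 at 0.258 times. Among 9 expressed lipolysis genes they were Plin1 and Prkar2b, chosen in the same way, and Pde3b, the phosphodiesterase through which insulin lowers cyclic AMP in fat cells, at 63.7 against 8.00 CPM.

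Not every fat cell gene was high in S7. Of the 14 adipocyte genes 12 were expressed, and 7 were at least 2 times the median, a mark that 1518 of 15183 genes reached: the 5 markers, for which the choice of genes fixed this, Cebpa (5.31 times) and Car3, a carbonic anhydrase abundant in fat (480.0 against 1.73 CPM). Fabp4, Pparg, Plin4, Lipe and Trarg1 lay between 0.661 and 1.35 times their medians, and all 5 had counts in every library. Of the other pair, leptin, Lep, had 3 counts or fewer in all 20 libraries, and Adrb3, a beta-adrenergic receptor of fat cells, had 27 counts in S7 and at most 3 elsewhere. Ucp1, of brown fat, had 80 counts in S7, 44 in S4 and 37 in S3, and Elovl3 and Otop1 were also highest in S7, at 20 and 9 counts. Among the other genes of the 8-gene brown fat list, Dio2 was at 3.22 times its median in S7, below S11, Prdm16 at 1.32 times, and Cidea, Cox8b and Cpt1b at 0.694, 0.425 and 0.487 times.

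Among 15173 other genes, those ranked most like the marker mean by Spearman rho over 20 libraries were Car3 (0.956), Igfbp6 (0.932), Fam118a (0.920), Scd1 (0.913) and Cyp2e1 (0.911). Without S7 their Pearson r was 0.936, 0.827, 0.816, 0.907 and 0.921. Among the 18 fatty acid synthesis genes Scd1 was also closest to the marker mean over the 19 libraries without S7 (Spearman rho 0.898), followed by Pgd (0.686) and G6pdx (0.649).

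The male KO and WT libraries were compared as labelled, since the study asks what the absence of Tecrl does, although Tecrl RNA was not lower in the libraries labelled male KO (60.3 to 99.4 CPM, median 84.8) than in those labelled male WT (median 81.7). S7 is one of the WT libraries, so for these 10 genes the direction was fixed by the choice, and calls and differences are a description from which nothing is read. In the S series genotype and transcript sex cannot be told apart, since S7, S8 and S9 held Xist and no Y-linked counts and S10, S11 and S12 held Y-linked transcripts. The Xist difference in this fit was -8.55 on the log2 scale. By the study's thresholds (unadjusted p under 0.05 and a log2 difference of at least 0.58, here from edgeR), 7 of 10 were called lower in KO, where 1.19% of 14481 genes were called lower, and 0 were called higher, where 0.905% were. The log2 differences were -4.65 for Adipoq, -4.47 for Retn, -4.09 for Plin1, -3.92 for Cfd and Cidec, -2.35 for Pck1 and -1.69 for Acaca. Fasn at -1.88, Prkar2b at -1.32 and Acly at -0.75 did not pass. Without S7 the same fit gave -0.49 for Adipoq, -0.65 for Cfd, -0.45 for Cidec, -0.10 for Plin1 and 0.03 for Retn, and Fasn and Acly turned to 0.14 and 0.09. Pck1 went to -0.89 and Acaca to -0.22. In the WT and TKO libraries alone, 2 against 2, Acaca stood at -0.12, Fasn at 0.14 and Acly at 0.02, and the markers and Pck1 were too low to be fitted. No gene passed an adjusted p of 0.05 by edgeR's quasi-likelihood test, 688 had an unadjusted p under 0.05, and DESeq2 called 12.

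In the libraries labelled female, where S7 plays no part, no gene of the 10 passed an adjusted p of 0.05 by edgeR. All WT libraries are S-numbered, so once library series is a covariate only S4 to S6 can be set against S1 to S3. Those are the KO libraries whose sex-linked transcripts go against the label, so genotype and sex cannot be told apart here. Adipoq, Plin1 and Retn had too few counts to be tested. Cfd was 2.72 higher in KO on the log2 scale (standard error 0.499, edgeR adjusted p = 0.0767) and Cidec 1.60 higher (standard error 0.590, adjusted p = 0.213). Genes of other tissues were also higher in KO in this fit without passing the adjusted threshold: the atrial genes Sln, Myl7 and Myl4 differed by 5.42, 4.99 and 3.93 (adjusted p = 0.0977, 0.129 and 0.113) and the liver genes Alb and Apoa2 by 3.57 and 2.45 (adjusted p = 0.153 and 0.141). Their part in the marker values was not tested. Entering this fit depended in part on the KO libraries: at least 10 counts were reached in 1 WT library for Cidec and in 2 each for Cfd and Pck1, and Cidec would not have been tested without S4 to S6. Cfd and Cidec passed the study's thresholds upward, where 2.85% of 14511 genes did, and 0 of the 7 tested genes passed downward, where 7.15% did, a description that is not read against those shares. Cfd had an adjusted p under 0.05 by DESeq2 (9.24e-05) and by edgeR when S1 was left out (0.0113), both with the same filter. Without the filter edgeR gave adjusted p = 1.51e-11 for Cfd, 0.0362 for Pck1 and 0.0459 for Cidec. The same libraries entered with and without the filter, so these calls depend on the filter and are no separate support. TKO1 to TKO4 were also set in place of S4 to S6, a fit in which genotype and library series cannot be told apart. There the Cfd difference was -0.57 (standard error 0.525, adjusted p = 0.509). Pck1 differed by 1.19 (standard error 0.619, adjusted p = 0.334), and by -1.69 (standard error 0.677, adjusted p = 0.161) with the TKO libraries. Acaca at -0.09 (standard error 0.207), Fasn at -0.23 (0.209) and Acly at -0.15 (0.125) differed by less than 2 standard errors.

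A difference of the genotype effect between the labelled sexes was not resolved. In the S series every WT library held Xist and every KO library held Y-linked transcripts. Genotype and transcript sex cannot be told apart there, so this term is not read as an effect of sex. Over all 20 libraries 0 of 15187 genes passed an adjusted p of 0.05 by edgeR, with 2375 at an unadjusted p under 0.05, and no other tool was run for this term. Because S7 enters it, the 10 genes are not read from it. Without S1 the count was 1127.

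Library series was compared within KO, 6 S-numbered against 6 TKO libraries with labelled sex as covariate, to see whether the genes follow the naming of the libraries. S7 is not among these. All 6 S-numbered KO libraries held Y-linked transcripts, whereas TKO1 to TKO4 held Xist and no Y-linked count. Library series and transcript sex therefore cannot be fully told apart here, and the Xist difference in this fit was -9.76 on the log2 scale. Of the 10 genes 6 were higher in the S-numbered libraries at an adjusted p under 0.05 by edgeR, against 5.39% of 14540 genes, and 0 were lower, against 5.76%. The filter of 10 counts in at least 3 libraries was met by these 6 only with the S-numbered group: 2 TKO libraries reached 10 counts for Cfd, 1 for Pck1 and 0 for Adipoq, Plin1, Cidec and Retn. Entering the fit thus depended on being high in that group. The count of 6 and the adjusted p of each of these genes, here and below, are a description that is not read against the shares of all genes. Without the filter all 10 genes entered and the same 6 had an adjusted p under 0.05 by edgeR. That fit called 2507 genes in place of 1622. It used the same libraries, with at most 20 counts of these 6 genes in any TKO library, and adds no independent support. Plin1 had 5 to 42 counts in the S-numbered libraries and 0 or 1 in the TKO libraries, a pooled ratio of 33.1 (95% exact interval 11.01 to 163, counting error only, adjusted p = 0.00106). Retn had 6 to 19 counts against 0 to 2, a pooled ratio of 14.5 (5.95 to 46.0, adjusted p = 0.00171). Both groups of counts were disjoint.

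Cfd had 50 to 218 counts in the S-numbered KO libraries and 0 to 19 in the TKO libraries, a fitted log2 difference of 4.06 (standard error 0.508, adjusted p = 0.000539). Cidec differed by 3.14 (standard error 0.545, adjusted p = 0.00349) and Adipoq by 2.82 (standard error 0.591, adjusted p = 0.00909). Pck1, with 38 to 202 counts against 1 to 20, differed by 3.70 (standard error 0.552, adjusted p = 0.00155). The CPM of Plin1, Cfd, Cidec, Retn and Pck1 did not overlap between the series, as for 2.69% of 15183 genes in that direction. Prkar2b differed by 0.83 (standard error 0.371, adjusted p = 0.162).

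For the 3 enzymes no series difference was called. Acly had 454 to 689 counts in the S-numbered and 457 to 711 in the TKO libraries, a log2 difference of -0.01 (standard error 0.0872, adjusted p = 0.943). For Fasn it was -0.17 (standard error 0.148, adjusted p = 0.486) and for Acaca -0.23 (standard error 0.144, adjusted p = 0.309). Of the 18 fatty acid synthesis genes 3 were higher, where 5.39% of all genes were, and 0 were lower, where 5.76% were. Scd1 was higher by 1.19 (standard error 0.203, adjusted p = 0.00313), Thrsp by 0.51 and G6pdx by 0.45, with a median of 0.07 over the list and -0.01 over all genes tested.

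Calls for 3 markers were lost when libraries with sex-linked transcripts against their label were treated otherwise, although the fitted differences were not all smaller. With S4 to S6 left out, 9 libraries remained. Only TKO1 to TKO4 of these are labelled female, so the series difference rests on S10 to S12 against TKO5 and TKO6. The differences were 4.86 for Adipoq, 5.09 for Plin1, 7.78 for Cfd and 3.46 for Retn against 2.82, 4.46, 4.06 and 3.58 with S4 to S6. In all 71 genes were called in place of 1622. By edgeR Cfd (adjusted p = 0.00359), Cidec (0.00434) and Pck1 (0.0111) passed, whereas Adipoq (0.0624), Plin1 (0.0541) and Retn (0.081) did not. With the presence of Y-linked transcripts in place of the labelled sex, 37 genes were called and the same 3 passed. There the series difference rests on the S-numbered KO libraries against TKO5 and TKO6, since only TKO1 to TKO4 lack Y-linked transcripts. Kap (log2 difference 7.62, adjusted p = 0.00231) and Alb (7.64, adjusted p = 0.000892) were also higher in the S-numbered KO libraries, and the atrial genes summed to 15.3 to 7207 CPM there against 9.66 to 17.9 in the TKO libraries. The part of such tissue in the marker difference was not tested.

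**Figure D4:**
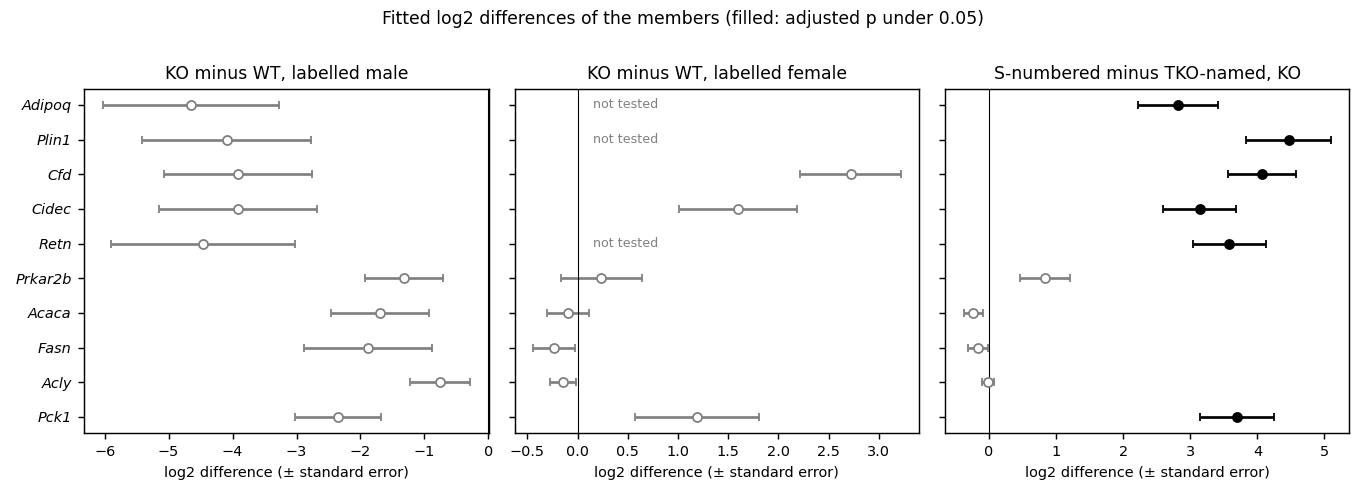
Fitted log2 difference of each gene with its standard error in 3 comparisons: KO minus WT in libraries labelled male (5 against 5), KO minus WT in libraries labelled female (7 against 3) and S-numbered minus TKO-named KO libraries (6 against 6); filled points have an edgeR adjusted p under 0.05. The comparison of series has 6 filled genes, and Acaca, Fasn and Acly lie near 0 in the female comparison and in that of series.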

How the data were processed

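Poly(A) RNA of mouse hearts was sequenced as paired-end reads in 20 libraries, which were grouped by the sample labels alone. Per the labels' processing notes, HISAT2, HTSeq 0.6.1p2 and DESeq2 1.26.0 were used with GRCm38; strandedness is not given in the sources used here. The authors deposited 1 table with whole-number read counts for 29339 genes and 20 libraries, without normalization. It also holds the FPKM of the authors, which equal the deposited counts scaled by gene length and total. GENCODE mouse release 21 lists 29328 of the identifiers. The exons of the 10 genes overlap no other gene there.

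Total counts were 12540002 to 20038593 per library, and 3 counts or fewer were treated as the floor. Each of the 44 within-group pairs differed beyond counting noise, so none was merged. Counts were normalized by TMM and tested with edgeR 4.0.16 (quasi-likelihood test, Benjamini-Hochberg adjustment) over genes reaching 10 counts in 3 or more libraries, for KO against WT per labelled sex (covariate: library series), for genotype by sex, and for library series within KO. Intervals and the floor cover counting error only. Log2 CPM used a prior count of 2. Software was R 4.3.3, limma 3.58.1, DESeq2 1.42.0, matplotlib 3.10.9, scipy 1.17.1 and Python 3.11.15. The fits were tested on simulated data.

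Alternatives were DESeq2, no filter on low counts, upper-quartile normalization, no series covariate, each series alone, limma on log2(FPKM + 1), the mean of the adipocyte markers as covariate, a prior count of 0.5, and each library left out in turn. Leaving out S4 to S6 and replacing labelled sex by the presence of Y-linked transcripts were added after the data were seen. The 10 genes and the lists were chosen with earlier results of these data known. Genes named are those 10, the genes of the cell type and pathway lists, the 10 genes most like the markers by Spearman rho, Tecrl and the kidney list.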

Additional observations from a re-analysis of the deposited data

Results flagged for a closer look

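In each group of 4 to 10 libraries, a gene's highest or lowest library was singled out where its gap to the next exceeded Dixon's 95% critical value. Of 30 gene and group combinations 12 were singled out. This count is not set against a chance rate, because 10 of the 12 are S7 values. In the libraries labelled male WT, S7 stood apart for all 10 genes, at 112.2 CPM for Adipoq, 89.4 for Plin1, 478.7 for Cfd, 180.7 for Cidec, 74.7 for Retn, 20.8 for Prkar2b, 176.7 for Acaca, 678.9 for Fasn, 209.7 for Acly and 124 for Pck1. The level in S7 also chose the genes, so these 10 are not independent of each other or of the choice. In the libraries labelled female KO, S4 stood apart for Cidec at 3.46 CPM and for Pck1 at 7.36 CPM. S4 also held the most albumin RNA (Alb), 1279 counts, and its part in these values was not tested. No library labelled male KO stood apart.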

How the results depend on the processing

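Leaving out S7 took the marker differences between male KO and WT to between -0.65 and 0.03. With 1 library left out, those of Retn ran from -5.02 to 0.028, Fasn from -2.36 to 0.14 and Acly from -0.93 to 0.086, each highest without S7. Fasn and Acly were also positive with the marker mean as covariate (0.22 and 0.12) and in WT and TKO libraries alone (0.14 and 0.016). Genes past the study's thresholds in males numbered 303, 852 without a filter, 52 by limma, and 205 (without S12) to 484 (without WT2) with 1 library left out. In females they numbered 1450, 2239 without a filter, 526 by limma, and 640 (without S3) to 2954 (without S1). Female Acaca and Fasn turned to 0.15 and 0.031 without the series covariate and to 0.30 and 0.20 against TKO1 to TKO4, where Cfd was -0.57 and Pck1 -1.69. In the fit with TKO1 to TKO4 genotype and library series cannot be told apart. With 1 library left out, female Prkar2b ran from -0.063 to 0.51 and Acaca from -0.24 to 0.065, both turning without S3. The genotype by sex count was 0 to 1127, above 0 only without S1, and its values ran from -0.18 to 3.097 for Fasn and -0.25 to 1.09 for Acly, both negative without S7. For library series, 1622 genes became 2507 without a filter, 71 without S4 to S6 and 37 with Y-linked transcripts in place of labelled sex. Without S4 to S6, Acaca was 0.015 and Fasn 0.22. The cause of these changes was not tested. No paired analysis was possible because the replicate numbers only name libraries and pair none of them. Depth limits Adipoq, Plin1 and Retn, which were at or under 3 counts in 9 to 11 of the 19 libraries other than S7.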
